A study of Mus musculus with 24 samples.

Results

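A set of 10 genes of transforming growth factor beta (TGF-beta) signalling were followed through single-nucleus RNA sequencing of the mouse brain: the ligands *Tgfb1*, *Tgfb2* and *Tgfb3*, the receptors *Tgfbr1* and *Tgfbr2*, the intracellular mediators *Smad2*, *Smad3* and *Smad4*, the inhibitor *Smad7*, and *Itgb8*, the beta subunit of an integrin that activates some latent forms of TGF-beta. They are the rows of the deposited count matrices that carry these symbols, 10 of 32288 genes. The samples were 24 libraries from 12 mice of the strain B6.Pdgfbtm3Cbet, 1 library per mouse and region. Mutant mice (*Pdgfb* ret/ret, 6 females) carried the *Pdgfb* retention-motif allele on both chromosomes, and control mice (*Pdgfb* ret/wt, 5 females and 1 male) carried it on 1 chromosome, so no group was free of the allele and every cell of an animal carried it. Ages ran from 5 months to 5 months and 18 days for the mice with numbers 1 to 3, and from 4 months and 7 days to 4 months and 24 days for those with numbers 4 to 6. The calcification-prone deep brain (pallidum, thalamus and hypothalamus, midbrain and pons) and the calcification-free cortex with hippocampus were taken from each mouse. The study asked how microglia near calcified vessels differ from other microglia, and the comparisons here are between cell classes, between genotypes and between regions.

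TGF-beta is secreted in a latent complex, and integrins that contain the *Itgb8* product are among the activators of some latent forms. The active ligand binds a receptor of type II (*Tgfbr2*), which recruits and phosphorylates a receptor of type I (*Tgfbr1*). The type I receptor phosphorylates Smad2 and Smad3, which enter the nucleus with Smad4 and regulate transcription, and Smad7 is induced by the signal and dampens it. In the brain, microglia need TGF-beta signalling to keep their homeostatic gene program.

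*Tgfb2* and *Tgfbr2* are shown with the 250 bases before their transcription start (RefSeq, GRCm38.p6, minus strand, 5′ to 3′), because the first came closest of all members to a difference between genotypes and the other differed between regions. Capitals mark the letters CAGAC, the core of the Smad-binding element, searched on both strands (GTCTG on the other), with no overlapping matches.
Tgfb2 (chr1:186705990-186706239): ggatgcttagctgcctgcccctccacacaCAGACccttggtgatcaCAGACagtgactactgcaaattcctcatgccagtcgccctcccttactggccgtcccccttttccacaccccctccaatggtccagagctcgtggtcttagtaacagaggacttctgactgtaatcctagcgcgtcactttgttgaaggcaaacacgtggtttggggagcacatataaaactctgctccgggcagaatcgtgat
Tgfbr2 (chr9:116175364-116175613): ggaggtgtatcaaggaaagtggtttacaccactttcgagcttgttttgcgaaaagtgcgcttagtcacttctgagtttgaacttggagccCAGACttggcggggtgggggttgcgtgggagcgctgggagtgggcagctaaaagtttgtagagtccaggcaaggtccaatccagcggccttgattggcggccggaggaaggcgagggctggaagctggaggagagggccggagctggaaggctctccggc
The *Tgfb2* stretch holds 2 matches, which begin at bases 30 and 47, and the *Tgfbr2* stretch holds 1, at base 91. Of 32851 such stretches of 250 bases, 42.194% hold at least 1 match, and of the 6 members with an entry 4 do (*Tgfb2*, *Tgfbr1*, *Tgfbr2* and *Itgb8*, whose RefSeq start lies inside the GENCODE gene model). The matches are a description of the letters and no test of Smad binding.

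All 10 are protein-coding genes, placed by GENCODE M21 on GRCm38. The ligands lie on chromosome 7 (*Tgfb1*, 25687002 to 25705077, plus strand), chromosome 1 (*Tgfb2*, 186622792 to 186705989, minus strand) and chromosome 12 (*Tgfb3*, 86056745 to 86079041, minus strand). *Tgfbr1* lies on chromosome 4 (47353222 to 47414931, plus strand) and *Tgfbr2* on chromosome 9 (116084293 to 116175360, minus strand). *Smad3* is also on chromosome 9 (63646767 to 63757994, minus strand), and *Itgb8* is also on chromosome 12 (119158022 to 119238802, minus strand). *Smad2* (76241580 to 76310963, plus strand), *Smad4* (73639009 to 73703780, minus strand) and *Smad7* (75367529 to 75395935, plus strand) share chromosome 18. Reads over introns were counted, so a gene's count covers its whole transcribed span.

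Values are CPM, counts per 1000000: the UMIs (unique molecules) of a gene divided by all UMIs of a cell class in a library and multiplied by that number. Classes were rebuilt here from marker genes and are called by the name of the class they resemble. A class entered with at least 10 nuclei in a library. Of the nuclei kept, 117256 in the deep brain and 40600 in the cortex fell in a named class. The 12 deep brain libraries had median depths of 3547 to 7314.5 UMIs per nucleus and the 12 cortical ones of 804 to 8054, with 7 cortical libraries below 1500. In the cortex 38844 nuclei formed 1 shallow cluster led mostly by mitochondrial genes, which was left unnamed. The deep brain had 1 such cluster, of 1874 nuclei with a median of 957 UMIs. Its members' levels, between 5.26 (*Tgfb1*) and 108.2 CPM (*Itgb8*), are set beside the low values of other classes. The cluster also carried astrocyte markers, and whether its levels measure free RNA was not tested. Libraries of the same mouse shared 36 to 176 barcodes and other pairs 8 to 220, at most 1.985% of the smaller library. Sums over a class cannot tell fewer transcripts per nucleus from a changed mix of nuclei within the class.

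*Tgfb1*, the ligand best known from immune cells, was a gene of microglia and macrophages. In the deep brain its level in microglia ran from 128.1 to 234.8 CPM with a median of 183.6 (mean 183.9 ± 35.6 SD, n = 12 libraries), and brain macrophages held 139.0 ± 67.9 (n = 12). These first 2 classes did not differ beyond their spread, whereas macrophages stood above endothelial cells (53.8 ± 17.7) in all 12 libraries. Neurons held 0.43 ± 0.11 CPM, and astrocytes, oligodendrocytes and oligodendrocyte precursors (OPC) held between 0.47 and 1.32, all below the 5.26 CPM of the unnamed shallow nuclei. Microglia, 2277 of the named nuclei of the deep brain after their filter, carried 56.2 ± 7.8% of the *Tgfb1* UMIs of the classes counted there.

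*Tgfb2* had another set of source classes. Endothelial cells ranged from 108.4 to 420.8 CPM with a median of 186.1 (218.0 ± 101.8, n = 12), and the choroid plexus epithelium held 199.5 ± 57.2 (n = 6). In the 6 libraries with both, endothelial cells (mean 234.5 CPM) were the higher in 3, so these classes were not separated. Both stood well above ependymal cells (48.0 ± 23.3, n = 12) and astrocytes (44.9 ± 9.0, n = 12), which did not differ from each other beyond their spread. Oligodendrocytes (3.54 ± 0.95) and microglia (3.19 ± 2.85 CPM) were lowest among the large classes. Neurons nonetheless carried 73.3% of the *Tgfb2* UMIs, at a level of 13.2 ± 2.3 CPM as a class, beside 13.6 in the shallow nuclei. They were the most numerous class (65614 nuclei) and had a median of 9790.5 UMIs per nucleus, against 2131 in endothelial cells. Neuronal clusters differed, and those led by *Nwd2* and *Scube1* (73.2 ± 15.1 CPM, n = 12) and by *Trpc6* and *Glis3* (60.2 ± 19.4, n = 9) lay above the mean of the class.

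*Tgfb3* was low everywhere. Oligodendrocytes held 11.9 to 19.8 CPM with a median of 14.6 (15.1 ± 2.7, n = 12), and no class stood above the next one in order beyond the spread between libraries. Microglia had a median of 0 CPM and a highest library of 4.64. By mean level the ligands therefore had different leading classes in the deep brain, microglia for *Tgfb1* and endothelial cells for *Tgfb2*. Neither was separated from the second class, macrophages and the choroid plexus. The same classes led by mean in the cortex among those with at least 3 libraries (214.6 ± 59.2 CPM of *Tgfb1* in microglia, n = 12, and 306.3 ± 149.3 CPM of *Tgfb2* in endothelial cells, n = 4). Of these endothelial libraries 3 were from mutants (251.6, 416.7 and 436.7 CPM) and 1 from a control (120.2 CPM).

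*Tgfbr1*, the type I receptor, separated microglia from every other class. In deep brain microglia it ranged from 2464.0 to 3614.2 CPM with a median of 3255.4 (3205.9 ± 350.4, n = 12). Macrophages, second in order, held 685.5 ± 344.0, below microglia in 12 of 12 libraries, and fibroblasts held 235.1 ± 39.3. Oligodendrocytes (62.4 ± 6.5), astrocytes (47.7 ± 8.1) and neurons (17.4 ± 2.6) were far lower, and the ratio of microglia to neurons was 183.8. Although neurons outnumbered microglia with 65614 nuclei, microglia carried 41.2 ± 4.9% of the *Tgfbr1* UMIs and neurons 31.0%. Cortical microglia held 2973.3 ± 521.3 CPM (n = 12).

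*Tgfbr2*, the ligand-binding type II receptor, was shared more widely. Microglia held 396.7 to 731.4 CPM with a median of 508.3 (533.4 ± 93.9, n = 12), macrophages 474.6 ± 166.8 (n = 12), T cells 415.7 ± 124.9 (n = 6, all from mutants) and endothelial cells 278.3 ± 79.8 (n = 12), and no neighbours in this order differed beyond their spread. Oligodendrocytes held 105.9 ± 29.8 CPM and, being numerous, carried 47.3 ± 8.0% of the *Tgfbr2* UMIs. Astrocytes (14.5 ± 3.0), neurons (6.25 ± 0.85) and OPC (5.62 ± 2.37) lay at or below the 17.4 CPM of the shallow nuclei.

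**Figure D1:**
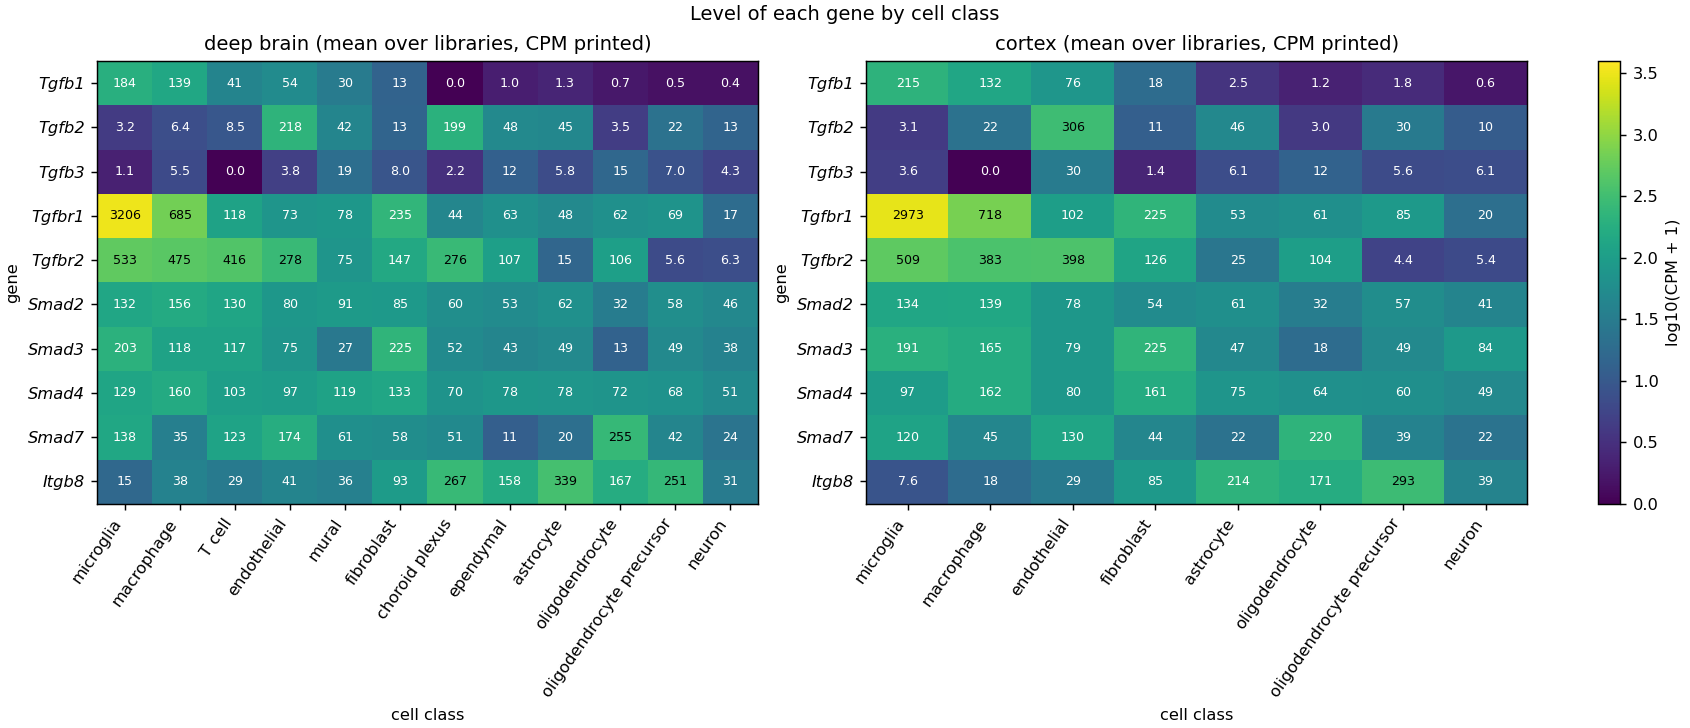
Mean level of each gene (CPM, log colour scale) in each cell class of the deep brain and the cortex, over libraries with at least 10 nuclei of the class and for classes with at least 3 such libraries. *Tgfbr1* in microglia, at 3205.9 CPM in the deep brain, is the highest value, and *Smad2* and *Smad4* vary least across classes.

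Of the Smads, *Smad2* and *Smad4* varied least from class to class. Macrophages, a smaller class, had the highest deep brain means of both, 156.0 CPM of *Smad2* and 159.9 of *Smad4* (n = 12). Over the 7 large classes of the deep brain, the highest mean was 4.17 times the lowest for *Smad2* and 2.58 times for *Smad4*, against 17.7 times for *Smad3*, 12.8 times for *Smad7* and 183.8 times for *Tgfbr1*. *Smad2* held 131.9 ± 16.3 CPM in microglia (n = 12) and was lowest in oligodendrocytes, at 31.6 ± 3.5, below neurons (46.2 ± 2.5) in 12 of 12 libraries. *Smad4*, the common partner, held 129.3 ± 29.9 CPM in microglia and was lowest in neurons, at 51.4 ± 8.8, below OPC (68.2 ± 10.3) in 12 of 12 libraries.

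*Smad3* was highest in fibroblasts and microglia, which did not differ beyond their spread. Fibroblasts held 151.3 to 300.5 CPM with a median of 220.4 (225.2 ± 41.6, n = 12), and microglia 144.5 to 247.1 with a median of 212.5 (203.4 ± 29.2, n = 12). Oligodendrocytes were at the other end, at 12.7 ± 2.9 CPM, below the shallow nuclei. Neurons as a class held 38.4 ± 13.7 CPM in the deep brain and 84.4 ± 18.3 in the cortex.

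Neuronal clusters differed widely in *Smad3*. In the deep brain, the cluster led by *Trpc6*, *Glis3* and *Itga8* held 152.4 ± 20.7 CPM (n = 9 libraries, 1633 nuclei) and the one led by *Rarb* and *Rgs9* 96.5 ± 22.0 (n = 12). By contrast the largest cluster, of 35239 nuclei, held 9.80 ± 1.89, and the cluster led by the dopamine-neuron genes *Slc6a3* and *Th* held 2.04 ± 2.43 (n = 11, 225 nuclei). In the cortex the cluster led by *Glis3* and *C1ql2* was again highest, at 153.9 ± 28.0 CPM (n = 12), and the one led by *Kcnmb2* and *Vip*, an interneuron gene, was lowest, at 17.2 ± 4.4. *Trpc6*, *Glis3* and *C1ql2* were among the leading genes of both the deep brain and the cortical cluster with the highest level. Clusters were spread unevenly over the deep brain libraries. The largest share of nuclei from 1 library was 0.236 for the *Trpc6* cluster, 0.2 for the *Rarb* cluster and 0.401 for one led by *Gabra6*. The part of dissection and of this mix in the class levels was not tested. Clusters were formed without the 10 genes, and these values are a description without a test.

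**Figure D2:**
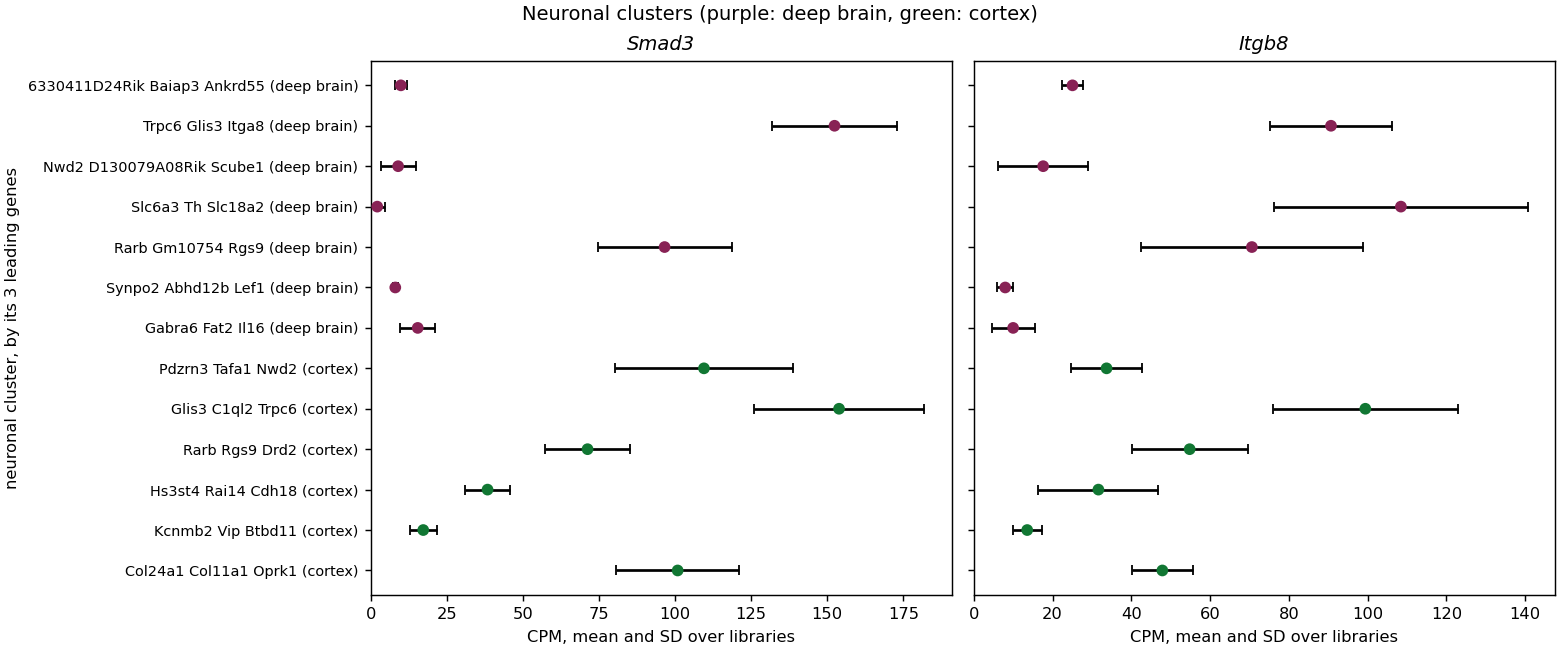
Level of *Smad3* and *Itgb8* (CPM, mean ± SD over libraries) in the neuronal clusters reported here with at least 3 libraries, each named by its leading genes. For *Smad3* the clusters led by *Trpc6* or *C1ql2* with *Glis3* are highest, at 152.4 and 153.9 CPM, and for *Itgb8* the dopamine-neuron cluster is highest, at 108.5 CPM.

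*Smad7*, the inhibitor, was a gene of oligodendrocytes and, less so, of endothelial cells and microglia. Oligodendrocytes held 193.2 to 346.3 CPM with a median of 250.5 (254.8 ± 39.9, n = 12), above endothelial cells (173.7 ± 52.3) in 11 of 12 libraries. Microglia held 138.0 ± 25.1 CPM, within the spread of endothelial cells, and astrocytes held 19.9 ± 2.5. In oligodendrocytes, where *Smad7* was highest, the means of *Smad2* and *Smad3* were the lowest of all deep brain classes. Oligodendrocytes carried 52.5 ± 6.1% of the *Smad7* UMIs of the classes counted in the deep brain, and in the cortex their level was 219.6 ± 46.0 CPM (n = 12).

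*Itgb8* was high in astrocytes, OPC, oligodendrocytes and the choroid plexus. Deep brain astrocytes held 252.4 to 413.7 CPM with a median of 334.4 (339.1 ± 50.2, n = 12), OPC 250.7 ± 20.8 and oligodendrocytes 166.8 ± 17.7 (n = 12 each). OPC stood above oligodendrocytes in 12 of 12 libraries, and astrocytes stood above the choroid plexus (267.0 ± 56.7) in the 6 libraries that had both. Microglia held 15.3 ± 6.3 CPM, below the 108.2 CPM of the shallow nuclei, as did neurons (30.6 ± 6.2) and endothelial cells (40.5 ± 15.4). Among neurons, the cluster led by *Slc6a3* and *Th* held 108.5 ± 32.2 CPM (n = 11) and the one led by *Trpc6* and *Glis3* 90.7 ± 15.5 (n = 9). In the cortex OPC held 292.7 ± 62.9 CPM and astrocytes 213.8 ± 46.4 (n = 12 each), so that OPC had the highest mean of the large classes there.

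By these orders, 3 of the 10 members (*Tgfbr1*, *Smad7* and *Itgb8*) stood in their highest deep brain class above the second beyond the spread within libraries, and 2 did when each nucleus was scaled to the same total. Among all other genes, those closest to a member's pattern over 20 class-by-region means were *Serinc3* (Pearson r = 0.99) and *Fblim1* (0.98) for *Tgfb1*, *Myo10* (0.92) and *Rgs12* (0.90) for *Tgfb2*, and *Unc93b1*, *Il1rl2* and *Tcirg1* (0.96 each) for *Tgfbr1*. *Rlim* (0.93) was closest to *Tgfbr2*, *Kdm7a* (0.92) to *Smad3*, *Taldo1* (0.84) to *Smad7*, and *Kank1* (0.89) and *Npas3* (0.89) to *Itgb8*. The 20 means share libraries and depth, so these correlations are a description.

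Between genotypes, no member passed the threshold in edgeR in a cell class that was tested. Over 13 comparisons, 7 in the deep brain and 6 in the cortex, 104 member tests had enough counts, and edgeR's quasi-likelihood test called 0 of them at an adjusted p of 0.05, with 12 at an unadjusted p below 0.05. DESeq2 called 1 (*Tgfb2* in deep brain astrocytes). Members at an unadjusted p below 0.05 in the deep brain were 1 of 7 in microglia, 1 of 9 in astrocytes and 4 of 8 in endothelial cells. Over all genes tested there, 478 of 7311, 2423 of 12840 and 407 of 4807 were below it. In the cortex they were 3 of 7 members in microglia and 3 of 8 in astrocytes, beside 173 of 2762 and 1138 of 9152 of all genes. Of all genes tested, the shares called in the deep brain were 0.246% in microglia, 4.83% in astrocytes, 1.64% in oligodendrocytes, 0.0165% in OPC, 0.347% in neurons, 0.582% in endothelial cells and 0.0781% in fibroblasts. In the cortex they were 0.145% in microglia, 0.492% in astrocytes, 0.93% in oligodendrocytes, 0% in OPC, 0.00595% in neurons and 0% in fibroblasts. Where edgeR called 0 genes, 327 (OPC) and 140 (fibroblasts) had an unadjusted p below 0.05, and DESeq2 called 1 and 0. Deep brain mural cells and cortical endothelial and mural cells had too few libraries for a test, and macrophages, T cells, ependymal cells and the choroid plexus were not tested between genotypes.

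In microglia the member nearest to a difference was *Tgfb1*. Deep brain mutants held 128.1 to 197.5 CPM with a median of 154.4 (156.9 ± 22.6, n = 6), and controls 183.3 to 234.8 with a median of 217.3 (210.8 ± 23.0, n = 6). The mutants lay lower, with 1 mutant library inside the range of the controls, and the log2 fold change was -0.42 ± 0.11 SE (edgeR, adjusted p = 0.186). Of these deep brain microglia, 322 mutant and 135 control nuclei lay in a cluster led by neuronal genes, and 280 and 330 in the largest cluster. The part of the neuron-led nuclei in the microglial values between genotypes was not tested. In cortical microglia the values were 183.9 ± 17.8 in mutants and 245.4 ± 71.7 in controls (-0.39 ± 0.18, adjusted p = 0.782). The genotype effect in the deep brain less that in the cortex was -0.04 ± 0.21 (interaction test, adjusted p = 1.0).

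*Tgfbr1* in deep brain microglia was 3066.9 ± 436.5 CPM in mutants and 3344.9 ± 182.1 in controls (n = 6 each, log2 fold change -0.11 ± 0.09, adjusted p = 0.926). In the cortex mutant libraries held 2247.2 to 3273.2 CPM with a median of 2484.2, and control libraries 2840.9 to 3932.1 with a median of 3295.4. These ranges overlapped, and the change was -0.35 ± 0.12 (adjusted p = 0.418). *Tgfbr2* had changes of 0.12 ± 0.12 in the deep brain and -0.0003 ± 0.137 in the cortex. *Smad2* in cortical microglia was 89.6 to 137.5 CPM with a median of 100.2 in mutants and 97.6 to 245.8 with a median of 149.9 in controls, ranges that overlapped. Its change of -0.50 ± 0.21 was the lowest of the 104 member tests and did not pass (unadjusted p = 0.0223, adjusted p = 0.663 by edgeR). In deep brain microglia it was 0.02 ± 0.13, and the difference between the regions was 0.51 ± 0.23 (interaction test by edgeR, unadjusted p = 0.0332, adjusted p = 1.0). The 10 homeostatic microglial genes known to depend on TGF-beta, all tested, had 0 calls in either region by edgeR or DESeq2 (0 at an unadjusted p below 0.05 in the deep brain and 2 in the cortex), with a median log2 change of 0.016 in the deep brain (-0.0026 over all genes) and -0.11 in the cortex (-0.0131 over all genes).

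**Figure D3:**
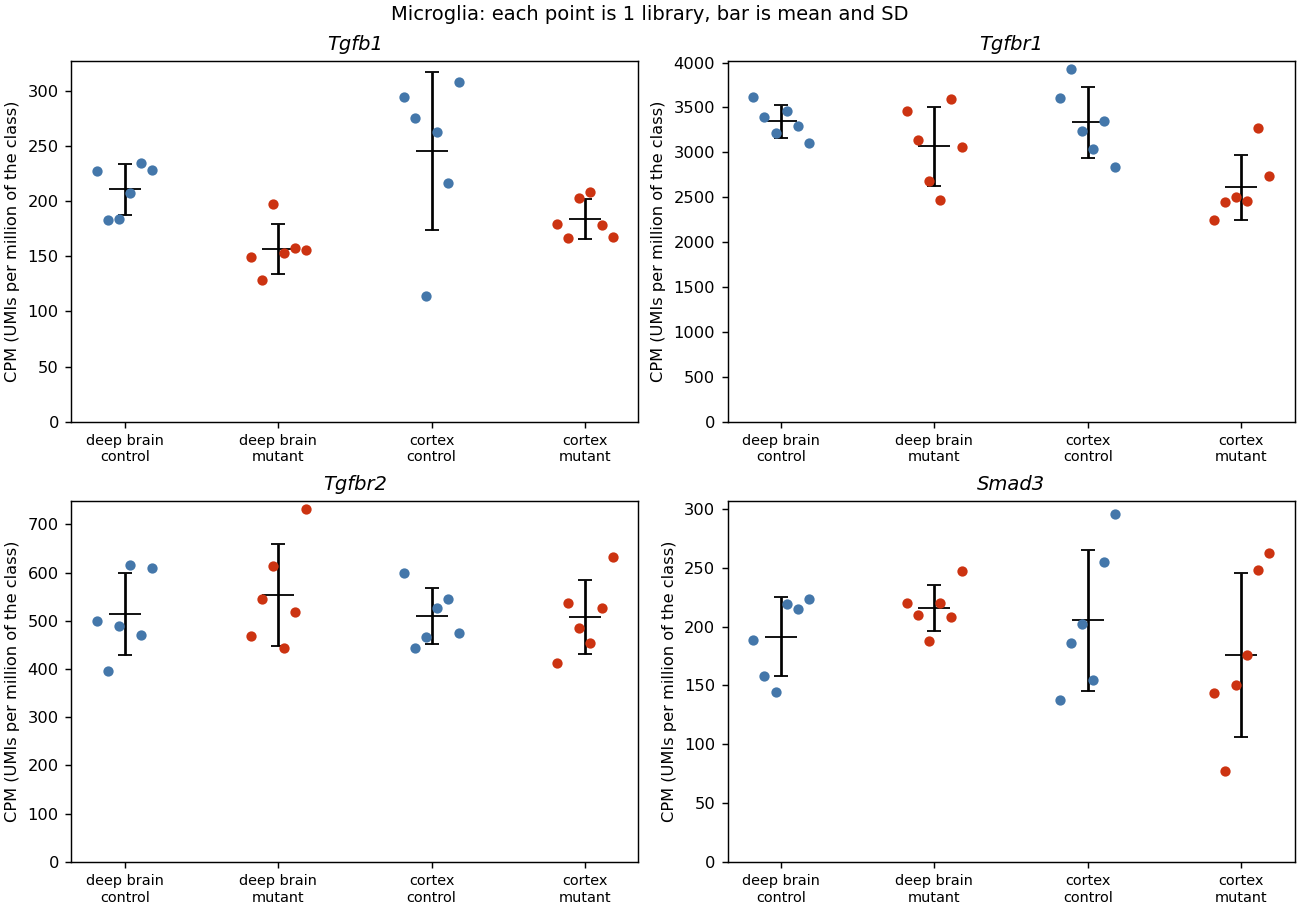
Level of *Tgfb1*, *Tgfbr1*, *Tgfbr2* and *Smad3* in microglia (CPM), 1 point per library, with the mean and SD of each group of 6. Deep brain mutants average 156.9 CPM of *Tgfb1* against 210.8 in controls, and the groups overlap in every panel.

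The microglia near calcified vessels, calcification-associated microglia (CAM), form a small cluster. It held 43 nuclei here, 40 from mutants, and its name was rebuilt from markers and may cover other nuclei than the study's. In all, 4 mutants had at least 5 CAM-like nuclei, 34 nuclei with 92572 UMIs in all, and were set against 673 homeostatic-like nuclei of the same libraries. Of these, 92 (13.7%) came from a cluster that held the homeostatic markers but was led by neuronal genes such as *Kcnd2*, *Fgf14* and *Nrxn3*. Over all 12 libraries this cluster held 322 mutant and 135 control nuclei. With that cluster left out, chosen after seeing the data, the mean differences given next were -473.6 ± 964.1 CPM for *Tgfbr1* and 402.1 ± 410.8 for *Tgfbr2*. *Tgfbr1* was 3573.9, 2887.5, 1910.5 and 2730.6 CPM in the CAM-like nuclei of mutants 1, 3, 5 and 6, and 3367.6, 2648.8, 3682.7 and 3060.4 in their homeostatic-like nuclei. It was higher in 2 mice and lower in the other two, and the mean difference was -414.3 ± 942.1 CPM (SD, n = 4), set by mutant 5, without which it was 38.4.

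*Tgfbr2* was 752.4, 499.8, 1210.0 and 1445.6 CPM in CAM-like nuclei and 464.3, 629.2, 508.2 and 697.3 in homeostatic-like nuclei of the same 4 mice. It was higher in 3 of 4 and lower in mutant 3, with a mean difference of 402.2 ± 410.4 CPM, within its spread. With the nuclei kept that held a UMI of *Mrc1*, *Mbp*, *Aqp4* or *Rbfox3*, 6 mutants had enough CAM-like nuclei, and *Tgfbr2* was higher in 6 of 6, by 292.4 ± 186.3 CPM (190 UMIs in CAM-like nuclei), beyond its spread. Here too the homeostatic-like nuclei took in a cluster led by neuronal genes such as *Cntn5* and *Erc2* (581 nuclei, 445 from mutants). Its part in this difference was not tested. *Tgfb1* rested on 11 UMIs in the CAM-like nuclei (132.1 ± 124.5 CPM against 169.0 ± 24.0). *Itgb8* gave 0 UMIs there, which allows up to 32.4 CPM (3 counts over the 4 libraries together, counting error only), so a difference from the 24.7 ± 5.9 CPM of homeostatic-like nuclei was not detectable at this depth. For scale, *Apoe*, a marker of CAM, was 2162.7 ± 192.3 against 220.7 ± 92.8 CPM, and the homeostatic gene *P2ry12* 445.9 ± 295.6 against 1634.1 ± 206.0. Both had a part in naming the clusters. No test was made between clusters.

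In deep brain astrocytes *Tgfb2* came closest to the threshold. Mutants held 29.5 to 53.1 CPM with a median of 38.4 (38.9 ± 8.1, n = 6), and controls 45.5 to 58.7 with a median of 50.4 (50.9 ± 5.3, n = 6). The ranges overlapped, and the log2 fold change was -0.42 ± 0.12 with an adjusted p of 0.0644 in edgeR and 0.0388 in DESeq2. With the mice paired by number edgeR gave an adjusted p of 0.0345, with mice of like age paired 0.0381, and without mutant 6 0.00681. In all, 4 of 20 alternatives called it, and the adjusted p reached 0.327 where nuclei with UMIs of another class were left out. *Itgb8* in these nuclei was 325.3 ± 59.0 in mutants and 352.9 ± 40.0 CPM in controls (-0.13 ± 0.12, adjusted p = 0.633). In cortical astrocytes *Smad7* (0.57 ± 0.21, adjusted p = 0.258), *Tgfbr2* (0.46 ± 0.22, adjusted p = 0.392) and *Smad3* (-0.43 ± 0.20, adjusted p = 0.382) had the lowest p-values.

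In deep brain endothelial cells 4 of the 8 members tested (*Tgfb1*, *Tgfb2*, *Smad2* and *Smad3*) had an unadjusted p below 0.05, all with higher values in mutants, and none passed adjustment. Of all 4807 genes tested in these cells 407 had an unadjusted p below 0.05. *Smad2* was 90.4 to 102.0 CPM with a median of 96.5 in mutants and 32.1 to 81.4 with a median of 65.3 in controls (n = 6 each). The groups did not overlap, as was so for 1.04% of all genes tested in these cells, and the log2 fold change was 0.63 ± 0.21 (adjusted p = 0.267). *Tgfb2* was 267.5 ± 119.3 against 168.5 ± 51.6 CPM (0.68 ± 0.28, adjusted p = 0.443). The summed markers of mural cells, the contractile cells around vessels, stood at 98.0 to 1027.2 CPM in the endothelial nuclei of mutants and 976.6 to 3485.0 in those of controls, and their part in these values was not tested.

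In the oligodendrocytes, OPC, neurons and fibroblasts of both regions no member had an unadjusted p below 0.05 between genotypes. In deep brain oligodendrocytes *Smad7* was 258.7 ± 52.4 CPM in mutants and 251.0 ± 26.8 in controls (0.08 ± 0.12). In deep brain neurons *Itgb8* was 34.0 ± 6.7 against 27.3 ± 3.4 CPM (0.31 ± 0.15, adjusted p = 0.406) and *Smad3* 33.5 ± 12.0 against 43.3 ± 14.5 (-0.38 ± 0.29, adjusted p = 0.66). The part of the uneven mix of neuronal clusters in these neuronal values was not tested. The genotype effects of the 2 regions were compared in 44 member tests over 5 classes, with 0 called by edgeR, 0 by DESeq2 and 2 at an unadjusted p below 0.05. Of all genes that test called 0% in microglia, 0.0526% in astrocytes, 0% in oligodendrocytes, 0% in OPC and 0.195% in neurons. In the 3 classes with 0 calls 287, 448 and 488 genes had an unadjusted p below 0.05, and DESeq2 called 0, 4 and 0.

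**Figure D4:**
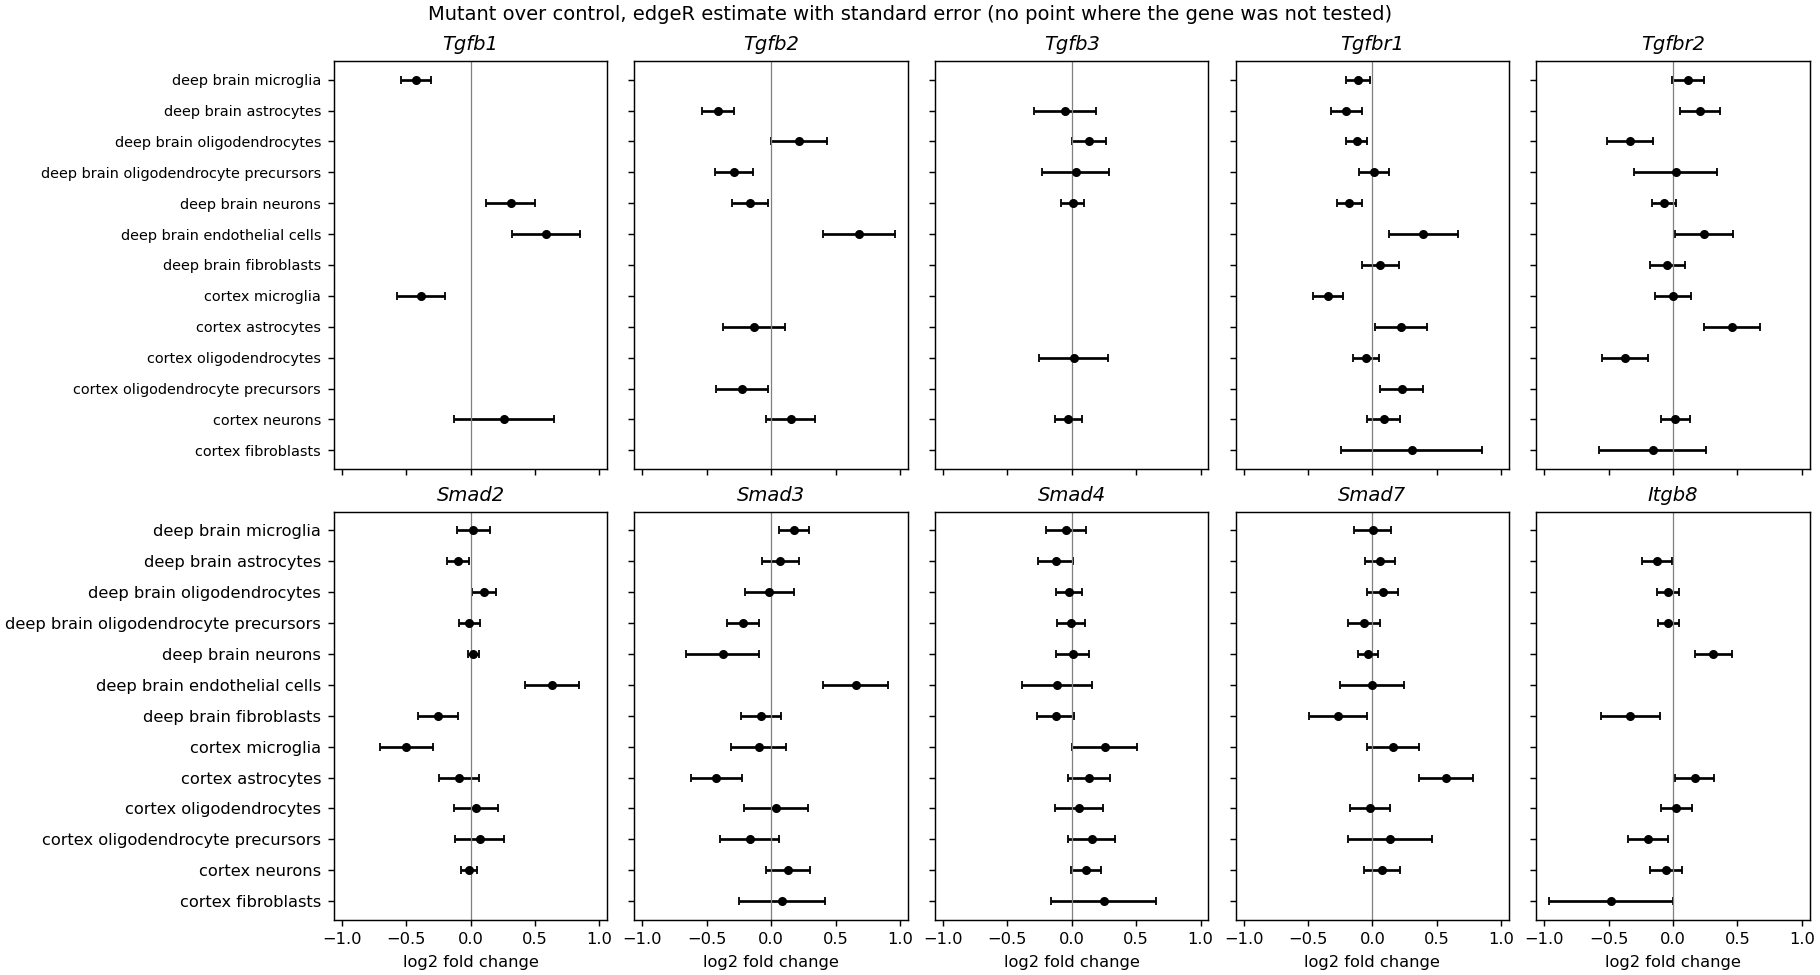
Log2 fold change of mutant over control (points, with the SE as bars) for each member tested, in each of the 13 comparisons of class and region. None passed an adjusted p of 0.05 in edgeR, and the largest positive change is *Tgfb2* in deep brain endothelial cells, at 0.68.

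Other genes of the pathway changed with genotype in few classes. Of 82 listed genes (latency proteins, other receptors, BMP and activin ligands, other Smads, negative regulators, targets and homeostatic microglial genes), deep brain astrocytes had 56 tested, 1 higher and 3 lower in mutants, beside 4.83% of all genes called there. *Tgfbr3*, the co-receptor betaglycan, rose to 51.1 ± 14.3 from 22.5 ± 9.7 CPM (log2 1.22 ± 0.24, adjusted p = 0.00597). *Inhba*, an activin subunit, fell by 1.28 on the log2 scale (adjusted p = 0.00106), *Bmp6*, a BMP ligand, by 1.33 (adjusted p = 0.00554), and *Sall1*, a transcription factor on the homeostatic microglial list, by 0.50 (adjusted p = 0.0469). *Inhba* was low, at 4.1 ± 1.2 against 9.5 ± 1.3 CPM, as was *Bmp6*, at 7.5 ± 3.3 against 18.9 ± 5.1.

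*Ldlrad4*, which limits Smad2 and Smad3 phosphorylation, rose in deep brain oligodendrocytes of mutants (269.9 ± 33.0 against 200.5 ± 23.7 CPM, 0.46 ± 0.10, adjusted p = 0.0332). It was the 1 call among 60 listed genes tested there, a share close to the 1.64% of all genes called. *Ccn2*, a matricellular target of TGF-beta, rose in deep brain endothelial cells (586.7 ± 258.7 against 76.4 ± 112.9 CPM, 2.90 ± 0.57, adjusted p = 0.0286). It was the 1 call among 33 listed genes tested there, beside 0.582% of all genes called. The mural markers given above differed between genotypes in these nuclei, and their part in this value was not tested. *Id3*, a target of BMP signalling, rose in cortical astrocytes (282.3 ± 166.8 against 97.9 ± 34.1 CPM, 1.48 ± 0.32, adjusted p = 0.0492). It was the 1 call among 45 listed genes tested, beside 0.492% of all genes called. The calls of *Sall1*, *Ldlrad4*, *Id3* and *Ccn2* were lost under 10 of 19, 11 of 20, 12 of 19 and 3 of 19 alternatives. For *Ccn2* these left out control 2, control 6 or mutant 4 (adjusted p = 0.0752, 0.06 and 0.0806). Over all alternatives the log2 changes ran from -0.63 to -0.45 for *Sall1* and 0.41 to 0.53 for *Ldlrad4*. They ran from 1.18 to 1.65 for *Id3* and 2.62 to 4.29 for *Ccn2*. In the other 9 comparisons of genotype edgeR called 0 of 421 tests of listed genes, with 50 at an unadjusted p below 0.05 and 6 called by DESeq2. The 50 were 2 of 40 in deep brain microglia (478 of 7311 over all genes) and 1 of 47 in OPC (646 of 12154). Deep brain neurons had 20 of 80 (2445 of 19883) and fibroblasts 8 of 52 (826 of 7683). In the cortex, microglia had 3 of 31 (173 of 2762) and oligodendrocytes 4 of 32 (1313 of 10103). Cortical OPC had 0 of 32 (327 of 7580), neurons 10 of 70 (1176 of 16803) and fibroblasts 2 of 37 (140 of 3162). Deep brain microglia had 40 tested, 2 at an unadjusted p below 0.05 and 0 called by either tool.

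Of all members compared between regions in control mice, *Itgb8* in astrocytes differed most. The 6 deep brain libraries held 316.9 to 413.6 CPM with a median of 335.8 (352.9 ± 40.0), and the 6 cortical ones 178.4 to 243.4 with a median of 193.7 (199.5 ± 23.7). The groups did not overlap, as was so for 16.7% of all genes tested, and the log2 fold change of deep brain over cortex was 0.81 ± 0.10 (adjusted p = 4.37e-06). Within each mouse the deep brain was higher in 6 of 6 controls, by 153.3 ± 57.5 CPM, and in 6 of 6 mutants, by 97.2 ± 81.6. *Tgfbr2* went the other way, at 10.6 to 16.0 CPM with a median of 13.1 in the deep brain and 11.6 to 26.5 with a median of 22.1 in the cortex. Its ranges overlapped (-0.65 ± 0.19, adjusted p = 0.0123), and it was lower in the deep brain in 5 of 6 controls and 6 of 6 mutants.

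These were 2 of the 9 members tested in astrocytes, where 31% of all genes were called between regions, so the share of members was no higher than the background. *Tgfb2* (50.9 ± 5.3 against 48.2 ± 21.2 CPM) and *Tgfbr1* (50.6 ± 6.8 against 48.8 ± 14.6) had log2 changes of 0.06 ± 0.19 and -0.002 ± 0.153. The summed markers of neurons stood at 336.6 to 589.3 CPM in deep brain and 1563.5 to 2927.2 in cortical control astrocytes, and those of oligodendrocytes at 547.2 to 798.7 and 276.6 to 478.3. Neurons themselves held 30.6 CPM of *Itgb8* in the deep brain and 39.2 in the cortex, and 6.25 and 5.40 CPM of *Tgfbr2*. Oligodendrocytes held 166.8 and 171.0 CPM of *Itgb8*, and 105.9 and 104.2 of *Tgfbr2*. The part of these nuclei in the astrocyte values was not tested. Without control 3 the *Tgfbr2* call was lost (-0.53, adjusted p = 0.064). Without the 3 cortical control libraries whose median depth was below 1500 UMIs, chosen after seeing the data, *Itgb8* in the cortex was 212.1 ± 28.5 and *Tgfbr2* 16.7 ± 5.0 CPM (n = 3).

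**Figure D5:**
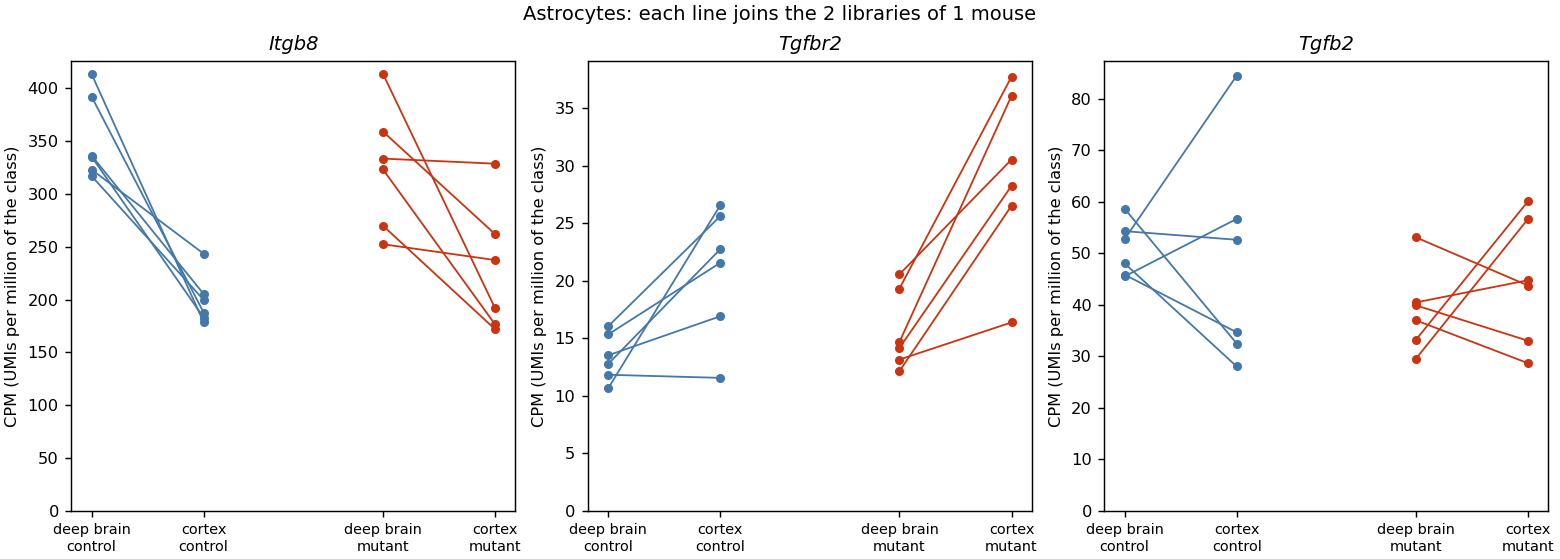
Level of *Itgb8*, *Tgfbr2* and *Tgfb2* in astrocytes (CPM), with a line joining the deep brain and cortical library of each mouse. *Itgb8* is higher in the deep brain in all 12 mice, by 153.3 CPM on average in controls and 97.2 in mutants.

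In microglia, oligodendrocytes and OPC, the other classes tested between regions, no member was called. Neurons and the rarer classes were not tested between regions. Of 7 members tested in microglia (2.27% of all genes called), edgeR and DESeq2 called 0, and *Smad4* had the 1 unadjusted p below 0.05 (131.9 ± 33.5 in the deep brain against 90.0 ± 31.3 CPM, 0.44 ± 0.21, adjusted p = 0.444). *Tgfbr1* was 3344.9 ± 182.1 against 3335.2 ± 392.8 CPM (-0.03 ± 0.10). Of 9 tested in oligodendrocytes (7.3% of all genes called) 0 were called by either tool and 0 had an unadjusted p below 0.05, and *Itgb8* was 170.6 ± 12.6 against 171.1 ± 20.0 CPM. Of 8 tested in OPC (2.4% of all genes called) 0 were called by either tool and 2 had an unadjusted p below 0.05, *Tgfb2* (-0.51 ± 0.17, adjusted p = 0.144) and *Itgb8* (255.2 ± 17.2 against 315.0 ± 69.8 CPM, -0.29 ± 0.12, adjusted p = 0.263).

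While the members were not called in microglia, 5 of 38 listed pathway genes were lower in the deep brain, 4 of them among the 10 homeostatic genes that depend on TGF-beta (median log2 -0.34, against 0.0055 over all genes). Of all 6255 genes tested there 142 (2.27%) were called, 117 of them lower and 25 higher in the deep brain. *Olfml3*, a secreted microglial protein, was 269.8 ± 38.6 against 514.3 ± 86.0 CPM (-0.96 ± 0.13, adjusted p = 8e-06), *Fcrls* 685.1 ± 126.5 against 1175.2 ± 282.5 (-0.81 ± 0.14, adjusted p = 0.000285), and the purinergic receptor gene *P2ry12* 1670.8 ± 273.1 against 2487.8 ± 466.02 (-0.60 ± 0.13, adjusted p = 0.00211). *Sparc*, a matricellular gene, was 779.6 ± 81.7 against 1043.8 ± 173.2 CPM (-0.46 ± 0.12, adjusted p = 0.021). The fifth was *Tmem119* (-0.52). The summed markers of microglia moved with these genes, at 10996.6 to 14537.4 CPM in deep brain and 14037.3 to 18349.4 in cortical control microglia, and their part was not tested. *P2ry12* also served to name the class, and the call of *Sparc* was lost under 5 of 13 alternatives, among them without control 2, 3, 4 or 5 (adjusted p up to 0.206 over all 13).

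In astrocytes 9 of 53 listed genes were higher and 10 lower in the deep brain, in a comparison that called 31% of all genes. *Nrros*, which tethers latent TGF-beta, was higher (51.4 ± 17.8 against 28.0 ± 7.7 CPM, 0.92 ± 0.24), as were *Smad9* (0.79 ± 0.19) and *Smad5* (0.44 ± 0.13), both Smads of the BMP branch. The receptors *Acvr1* (-0.60 ± 0.10), *Acvr1b* (-0.86 ± 0.19) and *Acvr2a* (-0.56 ± 0.13), which bind activins and BMPs, were lower, as was *Inhba* (9.5 ± 1.3 against 22.1 ± 7.6 CPM, -1.17 ± 0.21). Of the negative regulators, *Nedd4l*, a ubiquitin ligase, was 225.7 ± 30.7 against 350.6 ± 36.4 CPM (-0.65 ± 0.11) and *Ldlrad4* 123.5 ± 16.0 against 188.3 ± 48.4 (-0.63 ± 0.15). The target *Sparc* was higher in deep brain astrocytes (1.93 ± 0.25) and OPC (1.70 ± 0.25) and lower in deep brain microglia. *Ltbp1*, a latency protein, was lower in astrocytes (-0.54 ± 0.19, lost without control 2, 5 or 6) and OPC (-0.89 ± 0.17). In oligodendrocytes, in a comparison that called 7.3% of all genes, 1 of 51 listed genes was higher and 6 were lower, among them *Itgb1*, an integrin subunit, at 76.6 ± 7.8 against 111.5 ± 11.7 CPM (-0.53 ± 0.09). Its call was lost under 1 of 13 alternatives, in which nuclei with UMIs of another class were left out (-0.56, adjusted p = 0.0699), and the change stayed between -0.57 and -0.47 over all 13. The calls of *Bmpr2* (lower), *Junb* (lower), *Smad9* (higher) and *Zeb1* (lower) there were lost under 7 of 13, 6 of 13, 5 of 12 and 2 of 13 alternatives, and those of *Ccn2* and *Col4a1* (both lower) under 0. Both were at a few CPM, *Ccn2* at 2.5 ± 0.7 against 8.7 ± 5.3 and *Col4a1* at 1.9 ± 0.6 against 4.6 ± 1.2. *Ccn2* was also among the leading genes of a cortical neuronal cluster, and the part of other cells' RNA in these values was not tested.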

How the data were processed

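Nuclei of 24 libraries (6 mutant and 6 control mice, 2 regions) were sequenced by a 5′ droplet method. The authors aligned the reads with Cell Ranger 5.0.1 to mm10, introns included, and deposited UMI counts per gene and barcode, not normalized. The submitters' processing notes also name bcl2fastq 2.20.0.422. Libraries held 23625232 to 96459036 UMIs.

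Barcodes entered with over 500 and under 7000 genes and a mitochondrial share under 20% (204925 of 237224), and no doublet caller was run. Counts were scaled to 1000 per nucleus, and clusters were found by the Leiden method (igraph 0.11.9, Python 3.11.15) on 20 components of 2000 variable genes without the 10 members, at a resolution of 0.1 and, for mixed clusters, 0.5. Microglia were clustered again on 30 components at 0.8, without the nuclei that held a UMI of *Mrc1*, *Mbp*, *Aqp4* or *Rbfox3*. A name needed 3 or more of its list's markers at over 2 times their level in other nuclei. The homeostatic-like name needed its markers only at over 0.5 times their level in other microglia. A cluster was left unnamed where mitochondrial or another class's genes led, or where it was mixed with another class. Outside neurons this also held where its own markers did not lead or it was over 3 times as deep as its class. Microglial clusters were left unnamed where mitochondrial genes led or the CAM and proliferation lists were both met. CPM over a class need at least 10 nuclei per library.

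Counts summed per library and class (at least 3 libraries per group) were tested over all genes with edgeR 4.0.16 in R 4.3.3 (low-count filter, TMM scaling, quasi-likelihood, Benjamini-Hochberg, threshold 0.05), tested beforehand on simulated data, with DESeq2 1.42.0 as an alternative. The SE of a log2 change was derived here, as its absolute value divided by the square root of the quasi-likelihood F. It can be smaller than the p-value of a gene implies. Differences between classes are described by the spread within libraries: a difference is called beyond the spread where its mean over libraries is at least 1 SD. Genes named outside the 10 were, per list and comparison, up to 3 past the threshold with the lowest p, and *Tmem119* was named after its value was seen. The members and lists were chosen with earlier results of these data known. All samples were grouped by their labels, and each library is 1 region of 1 mouse. Libraries of the same mouse pair between regions. The tests reported between regions and of the interaction were fitted without this pairing, and a mouse block was an alternative. Alternatives were another normalization, filters, clustering resolution, scaling, mouse blocks and leaving out each mouse. Positions are from GENCODE M21. A neuronal cluster of the deep brain is not reported here.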

Additional observations from a re-analysis of the deposited data

Results flagged for a closer look

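Of 38 groups of 4 to 10 libraries tested for a library far from the others, 2 were singled out, and chance alone singles out about 1 in 20. *Tgfb3* in deep brain mural cells was 118.8 CPM in control 2, from 5 UMIs, against 0 to 15.6 CPM in the other controls. *Smad4* in deep brain macrophages was 266.4 CPM in mutant 6, from 10 UMIs, against 99.4 to 158.2 CPM in the other mutants.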

How the results depend on the processing

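Over 22 comparisons, 159 alternatives other than leaving out a mouse gave the same count of members called in 156. In deep brain astrocytes between genotypes 1 member in place of 0 was called with DESeq2, with the replicate block and with the block that pairs mice of like age, in each case *Tgfb2* (adjusted p = 0.0388, 0.0345 and 0.0381). Leaving out each mouse gave 0 to 1 members called there (1 without mutant 6) and 1 to 2 in control astrocytes between regions (1 without control 3). Of 3235 results for single members, 4 passed the threshold only under an alternative, 1 lost it and none reversed. For CAM-like against homeostatic-like nuclei, 1 member differed beyond the spread, and 1 to 5 did when a mouse was left out. That member was *Itgb8*, whose 0 UMIs there leave a difference not detectable, and with the excluded nuclei kept it was *Tgfbr2* instead (292.4 ± 186.3 CPM), with *Itgb8* at -16.3 ± 21.3. The *Tgfbr1* difference there ran from -631.9 to 38.4 CPM when a mouse was left out, and turned positive without mutant 5. At a microglial resolution of 0.4 no cluster was named CAM-like. A cluster of 68 nuclei there, 59 from mutants, met 10 CAM markers and 5 proliferation markers. It was left unnamed because both lists were met.

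Counts over all genes moved more. Over the alternatives that kept every mouse, calls between genotypes ranged from 0 to 81 in deep brain microglia (18 in the values reported), 90 to 813 in astrocytes (620), 140 to 486 in oligodendrocytes (222), 0 to 10 in OPC (2), 0 to 564 in neurons (69), 10 to 111 in endothelial cells (28) and 6 to 226 in fibroblasts (6). In the cortex they ranged from 4 to 64 in microglia (4), 10 to 128 in astrocytes (45), 7 to 559 in oligodendrocytes (94), 0 to 1 in OPC (0), 0 to 20 in neurons (1) and 0 to 18 in fibroblasts (0). Between regions in controls they ranged from 136 to 194 in microglia (142), 3833 to 5059 in astrocytes (3873), 143 to 1290 in oligodendrocytes (927) and 286 to 455 in OPC (286). For the interaction the range was 0 to 1 in microglia (0), 7 to 43 in astrocytes (7), 0 to 6 in oligodendrocytes (0) and 0 to 234 in neurons (40). The cause was not tested.

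Same-numbered mice deviated together in every pair in 1 genotype comparison, cortical neurons (r from 0.1066 to 0.6902), where the block left 1 gene called. In the others not every pair was over 0.1. Mice numbered 1 to 4 had the same age in both genotypes, 5 and 6 matched crosswise, and no litter or batch is given. Between regions the libraries pair by mouse, and the block gave *Itgb8* an adjusted p of 2.04e-05 and *Tgfbr2* of 0.0216 in astrocytes and changed no call of a member. Leaving out nuclei with UMIs of another class left too few libraries for deep brain endothelial cells and fibroblasts and for cortical microglia, astrocytes, OPC and fibroblasts. Members of a mean of a few CPM, such as *Tgfb3*, rest on few UMIs per library.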
